A study of Mus musculus with 4 samples.

Results

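Genes for 10 secreted growth and repair factors were followed in mouse bone-marrow-derived macrophages (BMDM), which are macrophages grown in culture from bone marrow. The 10 were chosen by name, as factors that macrophages are known to make for blood vessels, connective tissue, epithelium and immune neighbours, and they are 10 of 55536 annotated genes. Messenger RNA was measured by polyA RNA-seq in 4 biological replicate libraries of 1 group from C57BL/6J mice. According to the sample descriptions, the cells received 100 ng/mL Lipid A for 12 h, spent 12 h in washout and then received 100 ng/mL Lipid A again for 60 min. Lipid A is the membrane anchor of bacterial lipopolysaccharide and is sensed by the receptor TLR4. Other label fields give lipoprotein A as the agent and mention no washout, which conflicts with the descriptions. Sex and age were not collected, and all 4 libraries carry the same donor identifier although they are numbered as separate biological replicates, so p-values measure only the spread between these libraries. Untreated cells and cells exposed a single time were not analysed here, so the levels are not changes caused by Lipid A.

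Expected counts on genes came to between 23167140 and 41453162 per library, and 10407 genes reached 1 TPM (transcript abundance scaled for transcript length and library size) in each of the 4 libraries. All 10 macrophage identity markers reached that level, with a summed level of 17144 to 20134 TPM. Of the markers of other cells the bone marrow culture could hold, 3 of 10 for neutrophils, 1 of 8 for megakaryocytes and platelets, 3 of 7 for endothelium, 1 of 9 for lymphocytes, 0 of 8 for fibroblasts and stroma and 0 of 8 for eosinophils, mast cells and basophils did. The neutrophil-defining Ly6g was at 0 in each library, as were the endothelial Tek and Cldn5 and the eosinophil gene Epx. Other markers on these lists were present: S100a9 and S100a8 of the neutrophil list reached 71.4 and 49.3 TPM, both in replicate 1, Kdr and Vwf of the endothelial list 24.6 and 11.9 TPM, in replicates 2 and 4, and Ccr3 of the eosinophil list 17.3 TPM, in replicate 1. In bulk RNA, fewer cells of a type and less RNA per cell cannot be told apart.

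Growth factors are made as secreted or membrane-bound precursors and act on neighbouring cells through receptors with kinase activity or receptors that recruit kinases. Many bind heparan sulphate or matrix through stretches rich in the basic amino acids lysine and arginine, and in some of them alternative splicing of those stretches sets how far the protein spreads from the cell. Macrophages are known as a source of such factors during wound repair, where they promote the growth of vessels, the replacement of matrix and the closing of epithelium.

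For 3 of the 10 genes, Vegfa, Igf1 and Pdgfa, annotated transcripts differ by optional exons, most of them rich in basic codons. Those exons are shown because the forms they define are described with each gene. All are read from the mm10 sequence of annotated GENCODE M21 transcripts, 5′ to 3′ along the coding strand, with in-frame codons for lysine or arginine in capitals. The optional exons of Vegfa lie at chr17:46022277-46022348 (first) and chr17:46020991-46021122 (second) on the minus strand. The optional exon of Igf1 lies at chr10:87915298-87915349 on the plus strand, and the last coding exon of the long form of Pdgfa at chr5:138978638-138978690 on the minus strand.
Vegfa first optional exon: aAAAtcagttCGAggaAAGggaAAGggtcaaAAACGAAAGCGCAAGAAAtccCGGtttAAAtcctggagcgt
Vegfa second optional exon: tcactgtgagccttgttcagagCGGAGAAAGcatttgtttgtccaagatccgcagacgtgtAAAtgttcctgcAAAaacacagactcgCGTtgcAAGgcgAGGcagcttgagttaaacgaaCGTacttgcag
Igf1 optional exon: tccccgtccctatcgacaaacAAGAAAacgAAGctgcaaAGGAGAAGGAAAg
Pdgfa last coding exon of the long form: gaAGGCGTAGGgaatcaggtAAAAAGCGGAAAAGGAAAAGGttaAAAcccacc

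Basic codons were dense in these exons except the second optional exon of Vegfa, where their share was little above that of the whole coding sequence. Basic codons made up 12 of 23 whole codons (52.2%) in the first optional exon of Vegfa and 9 of 43 (20.9%) in the second. Over the whole coding sequence of the transcript that holds both it was 64 of 392 (16.3%). In the Igf1 exon they made up 7 of 17 (41.2%), against 26 of 159 (16.4%) over the whole coding sequence. In the Pdgfa exon they made up 11 of 17 (64.7%), against 41 of 211 (19.4%).

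The 10 genes spanned a wide range of levels. By mean TPM the order was Grn, Tgfb1, Igf1, Vegfa, Osm, Pdgfb, Pdgfa, Inhba, Hbegf and Lif. Of these, 7 of 10 (70.0%) reached 1 TPM in each library, beside 18.7% of all 55536 annotated genes. Among genes with enough counts to be tested for spread, it was 7 of 9 (77.8%), beside 88.1% of 11679. Grn alone held 85.4% to 89.6% of the summed TPM of the 10 genes. The median of log2(TPM + 0.1) over the 10 was 2.68 ± 0.28 (SD, n = 4). Over the 9 tested it was 3.98 ± 0.59, beside 3.77 ± 0.10 over all tested genes.

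**Figure D1:**
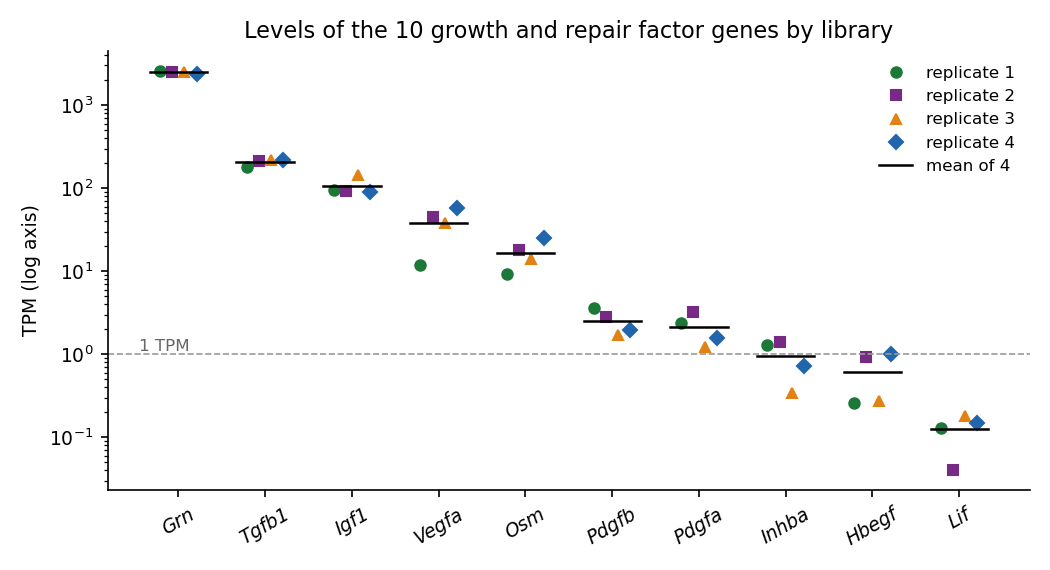
TPM (log axis) of the 10 genes, ordered by mean, with a symbol per library and a line at the mean of the 4; the dashed line marks 1 TPM. Grn sits between 2341 and 2593 TPM, and Lif does not pass 0.180 TPM.

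Grn (ENSMUSG00000034708.11, chr11:102430315-102437048, plus strand, mm10) encodes progranulin, a secreted and lysosomal protein that promotes wound repair and keeps lysosomes working. It had 2593, 2494, 2496 and 2341 TPM in replicates 1, 2, 3 and 4, a mean of 2481 ± 104 TPM (SD, n = 4) and rank 37 among all genes. The 4 values lay close together, with a highest value 1.11 times the lowest. Its main transcript, which codes for the full precursor of 602 codons, carried 91.6% ± 1.77 of the gene's TPM. Among 13 fixed partners of progranulin, 10 reached 1 TPM in each library and 0 of 11 tested were called variable between libraries by edgeR, beside 2.61% of all 11679 genes tested. Psap, whose product prosaposin binds progranulin and travels with it to lysosomes, had 9023 ± 1608 TPM, and the lysosomal protease Ctsb had 8602 ± 560 TPM. Sort1, the sortilin receptor that takes up progranulin, was singled out after its values were seen and had 0.690, 1.44, 2.55 and 2.19 TPM in replicates 1 to 4.

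Tgfb1 (ENSMUSG00000002603.15, chr7:25687002-25705077, plus strand) encodes transforming growth factor beta 1, which is stored in a latent complex, drives matrix production and restrains inflammation. Its level was 178, 214, 218 and 221 TPM in replicates 1 to 4, with a mean of 208 ± 20.2 TPM (SD, n = 4). Replicate 1 was lowest and the other libraries lay within a narrow band. The main coding transcript carried 98.0% ± 0.687 of the gene's TPM. The other TGF-beta isoforms were near 0: Tgfb2 and Tgfb3, singled out after their values were seen, did not pass 0.05 and 0.230 TPM in any library. Of 16 genes on the list of TGF-beta and activin ligands, 4 reached 1 TPM in each library. Bmp1, named here because it encodes a protease and not a ligand, was among these 4. The highest mean on the list was that of Gdf15, a stress-induced cytokine, with 109, 470, 112 and 326 TPM in replicates 1 to 4. Gdf15 was above Tgfb1 in replicates 2 and 4 and below it in replicates 1 and 3.

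Of 11 genes for the storage and activation of latent TGF-beta 5 reached 1 TPM in each library. Nrros, which tethers latent TGF-beta 1 on macrophages and microglia, had 220 ± 37.8 TPM, and Thbs1, the matrix protein thrombospondin 1 that can activate it, had 165 ± 20.8 TPM (SD, n = 4 each). Of 10 receptors for TGF-beta and activin 7 reached 1 TPM in each library and 0 of 8 tested were called variable, beside the same 2.61%. Tgfbr2, the ligand-binding type II receptor, had 53.6 ± 4.90 TPM, and Eng, the co-receptor endoglin, had 43.1, 43.0, 23.8 and 28.2 TPM in replicates 1 to 4. Skil and Ski, which hold back SMAD transcription factors, had 70.4 ± 17.6 and 19.5 ± 1.26 TPM and were the most abundant of 15 listed binding proteins and inhibitors, of which 4 reached 1 TPM in each library.

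Inhba (ENSMUSG00000041324.14, chr13:16011851-16031621, plus strand) encodes the beta A subunit of activin A, a TGF-beta family cytokine. It had 1.29, 1.40, 0.340 and 0.730 TPM in replicates 1 to 4, from 96, 113, 62 and 105 expected counts, with a mean of 0.940 ± 0.496 TPM. The values of replicates 1 and 2 were above 1 TPM and those of replicates 3 and 4 below it. The type I activin receptor Acvr1b and the type II receptor Acvr2a, singled out after their values were seen, averaged 8.34 ± 1.33 and 1.66 ± 0.299 TPM. Fst, which encodes follistatin, a soluble trap for activin, was also singled out and was at 0 TPM in each library by the first quantification and averaged 0.0153 TPM by the second.

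Igf1 (ENSMUSG00000020053.18, chr10:87858265-87937042, plus strand) encodes insulin-like growth factor 1, a survival and growth factor for muscle and other tissues. It had 94.6, 91.4, 145 and 90.1 TPM in replicates 1 to 4, with a mean of 105 ± 26.3 TPM (SD, n = 4). Replicate 3 was the highest and the other 3 libraries lay close together. Its relative Igf2 averaged 0.178 ± 0.0900 TPM. Of the 3 listed receptors for IGF and insulin, Igf2r, which clears IGF2 and carries lysosomal enzymes, had 22.4 ± 2.10 TPM. The insulin receptor Insr had 5.19 ± 0.557 TPM. The IGF1 receptor Igf1r, singled out after its values were seen, averaged 0.435 ± 0.0493 TPM.

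Igf1 transcripts were split between forms by an optional exon near the end of the coding sequence and by the leader, the start of the coding sequence. The optional exon changes the carboxyl-terminal extension of the precursor, and the mature growth factor is the same in all forms. Forms with the exon held 57.1%, 57.5%, 57.8% and 58.4% of the gene's TPM in replicates 1 to 4, with a mean of 57.7% ± 0.571 (SD, n = 4), and the second quantification gave 55.6% ± 1.70. In expected counts, which are not divided by length, the same forms held 26.5% ± 5.05. The transcript forms also differ in length: one that lacks the exon spans 7052 bases, and the most abundant one that holds it spans 651 bases. Both leader exons are shown because they tell apart transcripts that start at different places in the gene.
Igf1 leader exon A: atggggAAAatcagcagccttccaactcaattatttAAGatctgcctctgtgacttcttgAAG
Igf1 leader exon B: atgaccgcacctgca

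Leader exon A lies at chr10:87859350-87859412 and leader exon B further along the gene at chr10:87861371-87861385, both on the plus strand. Transcripts with leader A held 36.7% ± 2.61 of the gene's TPM and those with leader B 63.3% ± 2.60, and the shares of expected counts were 81.5% ± 4.08 for leader A and 18.5% ± 4.08 for leader B. Which leader held the larger share therefore depended on whether length was divided out.

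Vegfa (ENSMUSG00000023951.17, chr17:46016993-46032369, minus strand) encodes vascular endothelial growth factor A, the main signal for the growth of blood vessels. It had 12.0, 44.9, 38.0 and 58.4 TPM in replicates 1 to 4, with a mean of 38.3 ± 19.5 TPM (SD, n = 4). Replicate 1 was far below the others, and the highest library was 4.88 times the lowest. Vegfb, its relative with a role in lipid uptake and vessel survival, had 5.46, 17.1, 18.4 and 19.0 TPM, also lowest in replicate 1, and was not called variable (adjusted p = 0.227 by edgeR). The other members of the family did not pass the level of 1 TPM in each library.

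Of the 9 growth factor genes tested, 1 varied between libraries beyond the trend of genes at its level, and that was Vegfa. By edgeR's deviance against the trended dispersion over the 4 libraries, with Benjamini-Hochberg adjustment over 11679 genes, its adjusted p was 1.12e-05. That test called 305 genes, or 2.61% of those tested, and 135 genes without replicate 1. In CPM (counts scaled to library size) Vegfa had 21.5, 73.1, 63.6 and 108 in replicates 1 to 4, and relative to its mean the log2 values were -1.41, 0.35, 0.15 and 0.91. Without replicate 1 the adjusted p was 0.623. Summed over the list, neutrophil markers were at 140, 18.8, 114 and 16.4 TPM in replicates 1 to 4. The eosinophil, mast cell and basophil markers summed to 18.0, 1.88, 3.07 and 1.08 TPM, and in replicate 1 the chemokine receptor Ccr3 held 17.3 TPM of that. Mitochondrial transcripts held 1.94%, 2.79%, 4.77% and 3.99% of TPM, lowest in replicate 1. The part of these differences in the result for Vegfa was not tested.

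**Figure D2:**
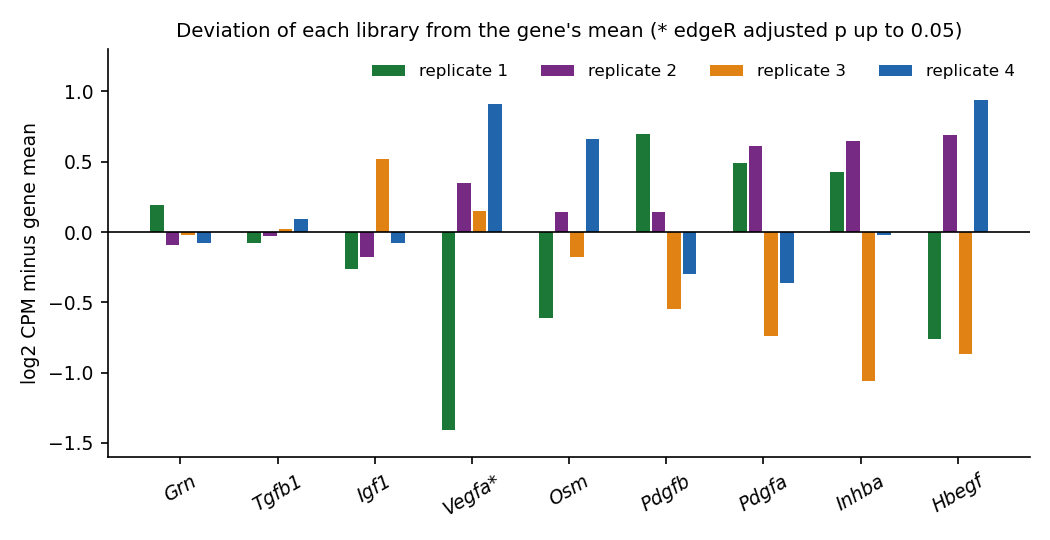
Log2 CPM in each library minus the gene's mean over the 4 libraries, for the 9 genes tested. The Vegfa bar of replicate 1 reaches -1.41, and an asterisk marks an edgeR adjusted p up to 0.05.

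The other 8 tested genes did not pass. Their adjusted p in the same edgeR test was 0.298 for Osm, 0.297 for Hbegf, 0.664 for Inhba and 0.976 for Igf1, and 1.000 for Grn, Tgfb1, Pdgfa and Pdgfb. Lif had too few counts to be tested. Among the 304 other variable genes, those whose profile of centred log2 CPM over the 4 libraries was nearest to Vegfa by root mean square difference were Scd2 (0.06), St6gal1 (0.09) and Tifab (0.16). Scd2, a fatty acid desaturase, had 112, 381, 366 and 566 CPM in replicates 1 to 4, in the same order of libraries as Vegfa. St6gal1, a sialyltransferase, had 4.55, 13.7, 12.5 and 23.8, and Tifab, a regulator of TRAF6 signalling, had 19.6, 55.0, 61.0 and 80.3.

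The forms of Vegfa differ by the 2 optional exons, which carry the heparin-binding stretches. Forms with the second exon only, which bind both matrix and neuropilin, held 44.6%, 52.8%, 45.5% and 50.0% of the gene's TPM in replicates 1 to 4, with a mean of 48.2% ± 3.86 (SD, n = 4). Forms with neither exon, which spread freely, held 33.7% ± 7.27. Forms with both exons, which stay close to the cell, held 12.8%, 5.39%, 1.19% and 1.27%. The share of the forms with both exons was highest in replicate 1, the library with the lowest Vegfa level, and rested on 47, 64, 23 and 31 expected counts. Without replicate 1 their mean was 2.62%, against 5.16% ± 5.45 over the 4 libraries. Forms with the first exon only held 3.65% ± 4.18, which was 1.61% without replicate 1, 10.1% by the second quantification and 0.377% of expected counts. Retained introns held 9.22% ± 5.28, which was 14.5% by the second quantification and 1.51% of expected counts.

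VEGF acts through the kinase receptors Flt1, Kdr and Flt4 and the co-receptors Nrp1 and Nrp2. Of these 5 genes 3 reached 1 TPM in each library. Nrp2 had 169 ± 18.4 TPM and Nrp1 had 96.0 ± 26.0 TPM (SD, n = 4 each), and neither was called variable. Kdr, the main signalling receptor of VEGF on endothelium, had 5.30, 24.6, 4.15 and 13.4 TPM in replicates 1 to 4 and was called variable (adjusted p = 2.28e-09 by edgeR). It was high in replicates 2 and 4 and low in replicates 1 and 3. The summed endothelial markers, which include Kdr, were 13.8, 40.5, 12.0 and 28.3 TPM in replicates 1 to 4, with Tek and Cldn5 at 0 in each library. Vwf, the gene of von Willebrand factor, had 2.32, 10.9, 2.69 and 11.9 TPM and was the other endothelial marker called variable (adjusted p = 2.35e-05 by edgeR), like Kdr high in replicates 2 and 4. Cdh5 and Pecam1 of the same list did not share that arrangement, and neither was called variable. In replicates 1 to 4 Cdh5 had 2.71, 1.87, 0.870 and 0.390 TPM and Pecam1 had 3.24, 3.08, 4.31 and 2.44 TPM. The part of endothelial cells in the result for Kdr was not tested.

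**Figure D3:**
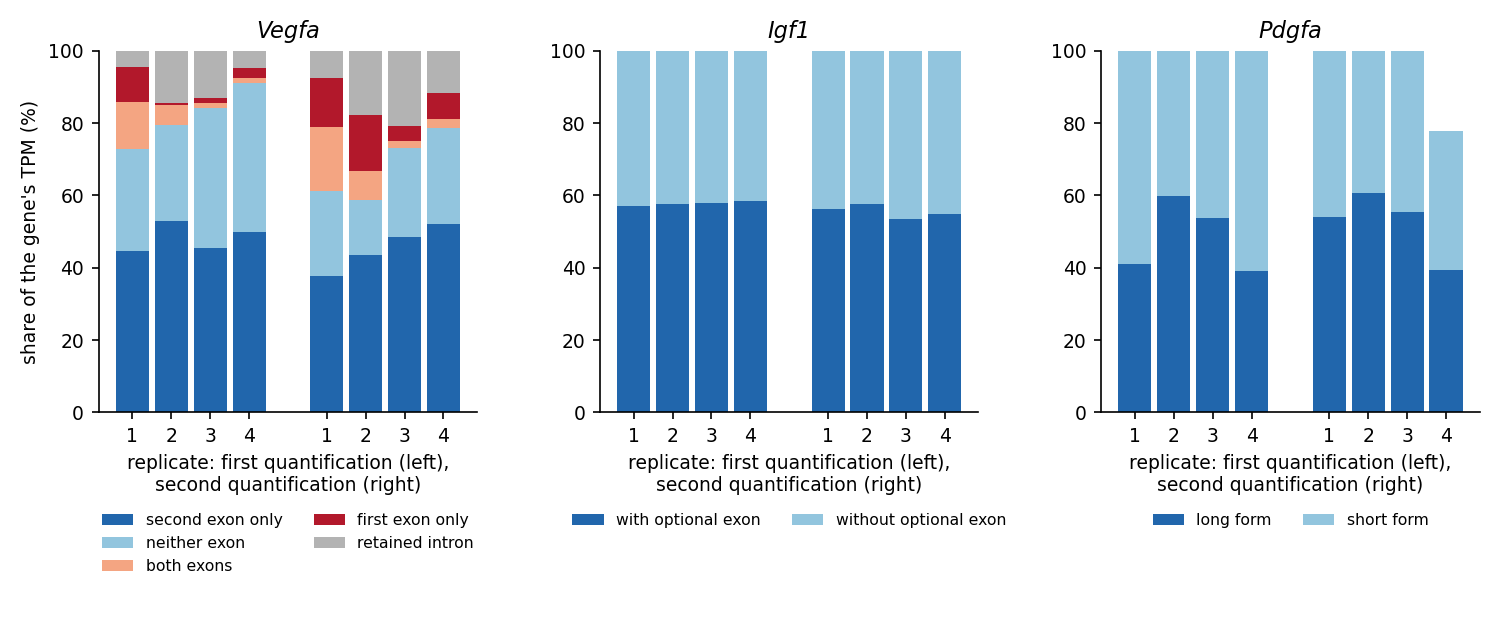
Share of each gene's TPM (%) held by the forms of Vegfa, Igf1 and Pdgfa in each library, by the first quantification on the left of each panel and the second on the right. Igf1 forms with the optional exon stay between 53.6% and 58.4%; the Pdgfa bar of replicate 4 in the second quantification ends below 100% because transcripts with no coding sequence hold the rest.

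Hbegf (ENSMUSG00000024486.6, chromosome 18, minus strand) encodes heparin-binding EGF-like growth factor, a membrane-anchored ligand of the EGF receptor that is released by shedding. It had 0.260, 0.920, 0.270 and 1.01 TPM in replicates 1 to 4, with a mean of 0.615 ± 0.406 TPM. These levels rested on 10, 30, 17 and 54 expected counts, with exact 95% Poisson intervals of 4.80 to 18.4, 20.2 to 42.8, 9.90 to 27.2 and 40.6 to 70.5, which cover counting error only. Replicates 2 and 4 were above replicates 1 and 3. None of the 9 listed ligands of the EGF receptor family reached 1 TPM in each library. After Hbegf the next highest mean was that of Egf, with 0.840, 0.300, 0.180 and 0.220 TPM in replicates 1 to 4. Without replicate 1 the mean of Egf was 0.233 TPM. The receptors were also low. Erbb3, which has little kinase activity of its own, had 0.995 ± 0.0839 TPM and Egfr had 0.0200, 0, 0.170 and 0.0200 TPM in replicates 1 to 4, a mean of 0.0133 TPM without replicate 3. Adam17, the protease known for releasing Hbegf and other ligands, had 78.1 ± 10.1 TPM, and its relative Adam9 had 65.0 ± 13.8 TPM, with 6 of 10 sheddases and convertases at 1 TPM or more in each library.

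Pdgfb (ENSMUSG00000000489.7, chr15:79995874-80014977, minus strand) and Pdgfa (ENSMUSG00000025856.15, chr5:138976014-138997370, minus strand) encode the B and A chains of platelet-derived growth factor, a mitogen for fibroblasts, pericytes and smooth muscle. Pdgfb had 3.61, 2.79, 1.71 and 1.95 TPM in replicates 1 to 4, with a mean of 2.51 ± 0.864 TPM (SD, n = 4). Pdgfa had 2.40, 3.24, 1.22 and 1.58 TPM, with a mean of 2.11 ± 0.901 TPM. Both were higher in each of replicates 1 and 2 than in either of replicates 3 and 4. Pdgfc, another chain of the family, averaged 8.38 ± 2.90 TPM and was the highest of the family. The receptors Pdgfra and Pdgfrb did not pass 0.0400 and 0.170 TPM in any library.

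The long form of Pdgfa ends in the basic exon shown above, which holds the protein at the cell surface and matrix. It held 41.1%, 59.7%, 53.8% and 39.2% of the gene's TPM in replicates 1 to 4, with a mean of 48.5% ± 9.91 (SD, n = 4), from 23, 39, 25 and 19 expected counts. The short forms held 51.5% ± 9.91, so that neither form was set apart from the other beyond the spread between libraries. The second quantification gave 52.4% ± 9.22 for the long form.

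Osm (ENSMUSG00000058755.3, chr11:4236420-4241026, plus strand) encodes oncostatin M, an interleukin-6 family cytokine that acts on stromal cells, endothelium and hepatocytes. It had 9.31, 18.2, 14.2 and 24.9 TPM in replicates 1 to 4, with a mean of 16.7 ± 6.57 TPM (SD, n = 4). Replicate 1 was lowest and replicate 4 highest, as for Vegfa. The coding transcript of Osm carried 95.2% ± 0.509 of the gene's TPM. Lif (ENSMUSG00000034394.14, chr11:4257557-4272514, plus strand), which lies near Osm on the same strand, encodes leukaemia inhibitory factor of the same family. It had 0.130, 0.0400, 0.180 and 0.150 TPM, from 9, 2, 20 and 14 expected counts. The interval for the 2 counts of replicate 2 runs from 0.242 to 7.22 counts, and no order among the libraries can be read from so few.

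These cytokines signal through the shared chain gp130, encoded by Il6st, with chains specific to each ligand. Il6st had 18.4 ± 5.14 TPM and Il11ra1, the interleukin-11 receptor, had 17.2 to 26.0 TPM, with a mean of 13.1 TPM by the second quantification, and 3 of 6 receptor chains reached 1 TPM in each library. The chains for oncostatin M and leukaemia inhibitory factor, Osmr and Lifr, were singled out after their values were seen. Osmr had 0, 0.0200, 0.0300 and 0 TPM and Lifr had 0.250, 1.40, 0.550 and 0.590 TPM in replicates 1 to 4. Of the other cytokines of the family, Il6 had 26.8, 68.2, 7.04 and 50.7 TPM and was called variable (adjusted p = 1.29e-09 by edgeR), and Il27 had 28.5 ± 11.2 TPM. Il6 was high in replicates 2 and 4, the libraries with the higher Osm levels, and without replicate 3 its adjusted p was 0.333 by edgeR.

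**Figure D4:**
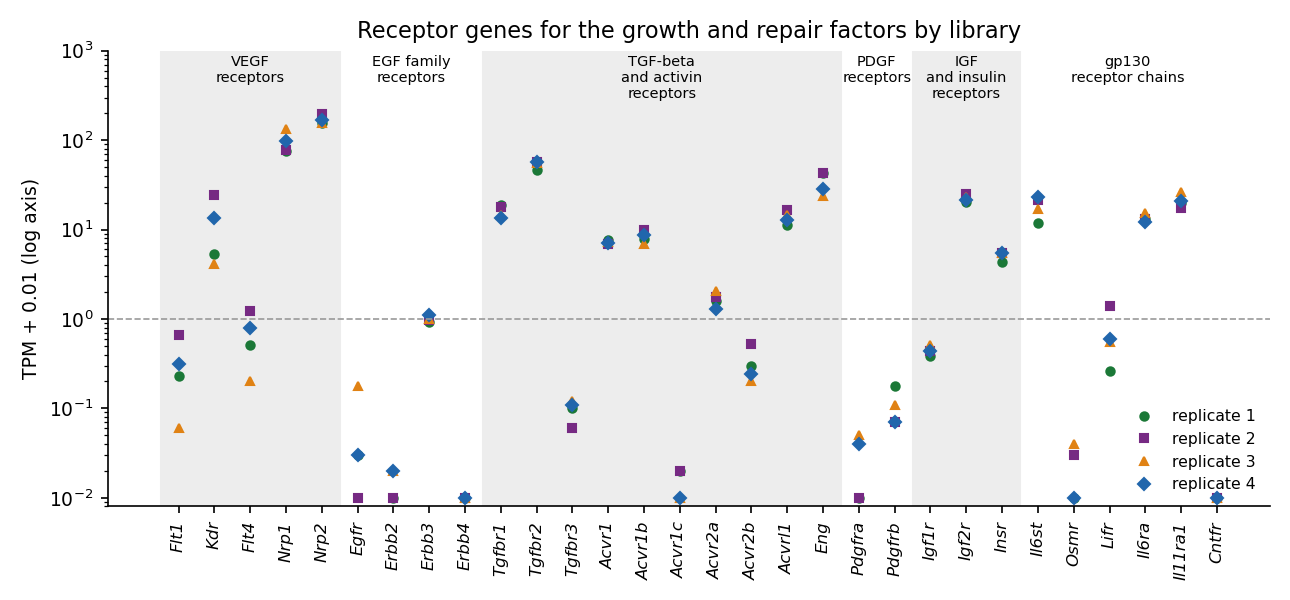
TPM + 0.01 (log axis) of the receptor genes for the VEGF, EGF, TGF-beta and activin, PDGF, IGF and gp130 ligand families in each library; the dashed line marks 1 TPM. The neuropilins Nrp1 and Nrp2 are the highest, and both PDGF receptors lie at or below 0.17 TPM.

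Over the pathway as a whole, 138 listed genes other than the 10 were measured, and 62 reached 1 TPM in each library. Of 73 tested for spread, 5 were called variable, beside 2.61% of all tested genes. They were Kdr and Il6, given above, with Gdf15, Csf1 and Irs2. Gdf15 had 109, 470, 112 and 326 TPM in replicates 1 to 4 (adjusted p = 7.83e-06 by edgeR), high in replicates 2 and 4. Csf1, the growth factor on which macrophages depend, had 22.2, 71.3, 27.0 and 62.9 TPM (adjusted p = 0.001), in the same arrangement. Irs2, an adaptor of insulin and IGF receptors, had 2.50, 3.08, 1.23 and 5.52 TPM (adjusted p = 0.00718), with the highest value in replicate 4, and lost the call without replicate 3 (adjusted p = 0.604) or replicate 4 (adjusted p = 0.531). Over the same libraries the summed neutrophil markers were 140, 18.8, 114 and 16.4 TPM and the summed megakaryocyte and platelet markers 270, 154, 301 and 139 TPM, both lower in replicates 2 and 4, where Gdf15, Csf1 and Il6 were higher. Their part in these results was not tested. Hgf, a growth factor for epithelium, had 6.70 ± 0.631 TPM and was not called. Among the signal transducers, of which 12 of 13 reached 1 TPM in each library, the adaptor Grb2 had 542 ± 205 TPM and Stat3, which carries gp130 signals, had 89.0 ± 10.1 TPM.

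Neighbours in the order of level were compared within each library, since TPM is per length. Grn exceeded Tgfb1 by 3.58 ± 0.20 log2 units (SD, n = 4), Tgfb1 exceeded Igf1 by 1.01 ± 0.32, and Igf1 exceeded Vegfa by 1.64 ± 1.04. In these pairs the ranges over libraries did not overlap, and the higher gene was higher in 4 of 4 libraries. Vegfa exceeded Osm by 1.07 ± 0.48 in 4 of 4 libraries, although their ranges overlapped. Osm exceeded Pdgfb by 2.65 ± 0.96, Pdgfa exceeded Inhba by 1.15 ± 0.32 and Hbegf exceeded Lif by 1.52 ± 1.19, each in 4 of 4 libraries, and only the ranges of Pdgfa and Inhba overlapped among these 3 pairs. In CPM not divided by length, Pdgfa minus Inhba was -0.61, so their order turns with that scale. In TPM, Pdgfb and Pdgfa differed by 0.28 ± 0.34 and Inhba and Hbegf by 0.58 ± 1.00, each in 3 of 4 libraries. Both differences were within their spread. In CPM not divided by length their means were 1.11 and 1.84, so the size of these differences also depended on the scale. The smallest p that the exact two-sided sign-flip test over 4 libraries can give rounds to 0.13. It gave that value for the 7 pairs that held in 4 of 4 libraries (0.161 after Benjamini-Hochberg adjustment over 9 pairs), 0.250 for Pdgfb and Pdgfa and 0.375 for Inhba and Hbegf. The order of the pairs was taken from the means of the same libraries. Any pair that holds in 4 of 4 libraries must give the smallest p, so for those pairs the test adds nothing to that count.

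The authors deposited 2 quantifications of the same reads, and the levels of these genes were set side by side in both. By the second, Grn averaged 1895 ± 350 TPM and Tgfb1 168 ± 41.8 TPM, against 2481 ± 104 and 208 ± 20.2 TPM by the first (SD, n = 4 each). The median of all genes also moved, by -0.42, -0.60, -0.04 and -0.14 log2 units in replicates 1 to 4. By limma on the difference in each library (second quantification minus first, log2 scale), with Benjamini-Hochberg adjustment over all tested genes, 2 of 7 tested growth factor genes were called, beside 38.1% of all tested genes: Grn at -0.41 (adjusted p = 0.00400) and Osm at -0.37 (adjusted p = 0.0386). Without replicate 1 neither was called by limma (adjusted p = 0.220 for Grn and 0.380 for Osm), and Osm also lost the call without replicate 2 (0.199) or replicate 4 (0.133). With each library centred on its median, 3 of 7 were called by limma, beside 31.6% of all tested genes. These were Grn at -0.11 (adjusted p = 0.0188), Igf1 at 0.14 (adjusted p = 0.0206) and Vegfa at 0.16 (adjusted p = 0.0105). By the second quantification Vegfa had 10.1, 34.5, 40.5 and 57.7 TPM in replicates 1 to 4. The lowest and the highest library were those of the first, while replicates 2 and 3 changed places.

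**Figure D5:**
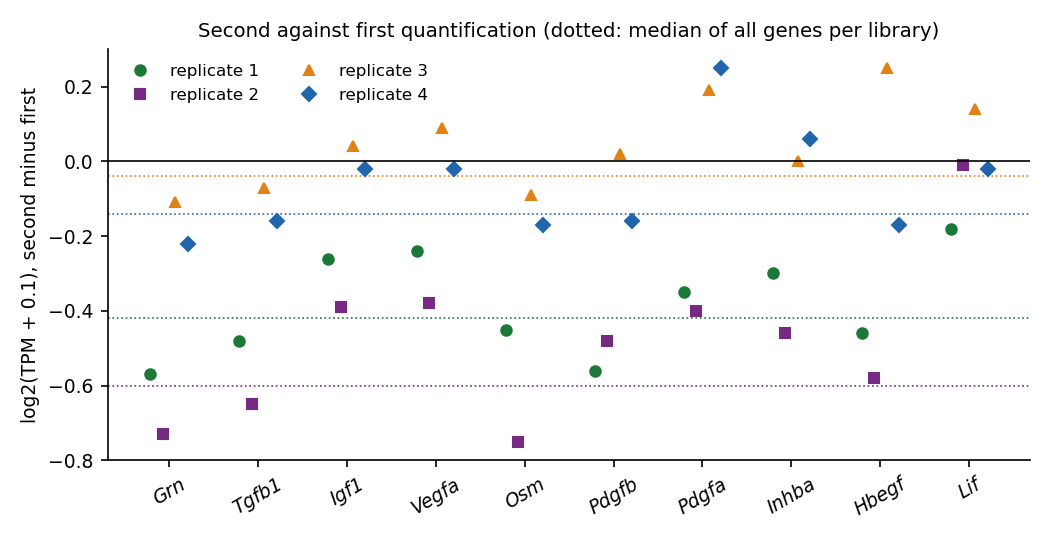
Difference of log2(TPM + 0.1), second minus first quantification, per gene and library. Dotted lines give each library's median over all tested genes (-0.42, -0.60, -0.04 and -0.14 in replicates 1 to 4), and most points of replicates 1 and 2 lie near their own dotted lines, below those of replicates 3 and 4.

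Replicates 3 and 4 have 4 read files each in the deposited records, while replicates 1 and 2 have 6, a technical split that was checked for each gene. edgeR's quasi-likelihood test called 0% of 11679 genes at an adjusted p of 0.05, none of the growth factors among them, while DESeq2 called 88, and 838 genes passed an unadjusted p of 0.05 by edgeR. The growth factors with the lowest unadjusted p were Pdgfa, Pdgfb and Inhba, which were lower in the libraries with 4 files. Pdgfa averaged 1.40 TPM in the libraries with 4 files and 2.82 TPM in those with 6, a fitted log2 difference in CPM of -1.13 (adjusted p = 0.644 by edgeR). Pdgfb averaged 1.83 TPM with 4 files and 3.20 TPM with 6 (-0.88, adjusted p = 0.655 by edgeR), and Inhba 0.535 TPM with 4 files and 1.34 TPM with 6 (-1.02, adjusted p = 0.693 by edgeR). For Vegfa the libraries with 4 files had 38.0 and 58.4 TPM and those with 6 files had 12.0 and 44.9 TPM, so the spread was within each kind as well as between them.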

How the data were processed

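The 4 libraries form 1 group and were all used, with replicate numbers as in the labels. The authors deposited, for each library, a gene table and a transcript table with expected counts (not normalised) and TPM (scaled by the authors to a fixed sum), and the percent of each gene held by each transcript, per the file headers. They also deposited a second transcript table with estimated counts and TPM. The deposited records name mm10 and GENCODE M21; the programs are not given in the sources used here. Depth was 26613690, 23167140, 41453162 and 34946569 expected counts in replicates 1 to 4, and the limit set by a count of 0, taken as 3 counts, is 0.113, 0.129, 0.0724 and 0.0858 CPM for counting error only.

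Expected counts were rounded for the count models. Spread between libraries was tested by edgeR 4.0.16, run in R 4.3.3 (TMM after filterByExpr, intercept-only trended dispersion, deviance on 3 degrees of freedom), with a common biological coefficient of variation of 22.4%. The quantifications were compared with limma 3.58.1 on log2(TPM + 0.1) for genes with a mean of at least 1 TPM, and the read-file split with edgeR and DESeq2 1.42.0. Adjustment was by Benjamini-Hochberg at 0.05 over all tested genes. Sign-flip tests used Python 3.11.15 with scipy 1.17.1, and plots matplotlib 3.10.9. The edgeR and limma tests were also run on simulated data with known changes. Intervals are exact Poisson at 95%.

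The named genes are the 10 members, the 2 of highest mean TPM in each of 18 lists with up to 3 others called variable, and the 3 variable genes nearest to each variable member. The members, lists and tests were chosen with earlier results of these data known. Forms of Vegfa, Igf1 and Pdgfa were grouped by annotated coding exons after transcript values were seen. Exon sequences were cut from the annotated transcripts. A protein table was not used here.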

Additional observations from a re-analysis of the deposited data

Results flagged for a closer look

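In 2 of 21 groups of 4 values examined, 1 library stood far from the other 3 relative to the whole range, and chance gives about 1 such group in 20. Tgfb1 had 178 TPM in replicate 1, against 214 to 221 TPM in the other libraries, and the gap to the nearest of them was 0.833 of the range. Igf1 had 145 TPM in replicate 3, against 90.1 to 94.6 TPM in the other libraries, a gap of 0.919 of the range. In CPM after TMM scaling, Tgfb1 had 255, 263, 273 and 286 in replicates 1 to 4 and Igf1 had 101, 106, 174 and 114, so replicate 3 stood apart for Igf1 on that scale too. Neither gene was called variable by edgeR (adjusted p = 1.000 for Tgfb1 and 0.976 for Igf1).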

How the results depend on the processing

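No paired analysis was possible because the libraries form 1 group. The count of variable genes was 305 and came to between 135 (without replicate 1) and 219 when 1 library was left out, and the growth factors called were between 0 and 1: Vegfa was lost without replicate 1 (adjusted p = 0.623 by edgeR), and stayed called without each other library and with no filter, DESeq2 size factors or DESeq2 dispersions. The quantification difference called between 1263 (without replicate 1) and 6041 (without replicate 3) genes when 1 library was left out, 1779 without replicate 2 and 1363 without replicate 4, against 4442 with all, with between 0 and 3 growth factors; with no filter on low values 0 growth factors were called. The read-file split called 35 genes with no filter on low counts and 88 with DESeq2, and between 0 and 12 (without replicate 2) when 1 library was left out, where the lone library of its kind is assumed to vary like the others. By the second quantification Grn was at 1895 TPM and Tgfb1 at 168 TPM; Igf1 forms were at 55.6% with and 44.4% without the optional exon; Vegfa forms were at 10.1% with the first exon only and 22.5% with neither, and retained introns at 14.5%. As shares of counts, an alternative added after seeing the data as was centring on the median, Igf1 forms were at 26.5% with and 73.5% without the exon, 81.5% with leader A and 18.5% with leader B, and Vegfa forms at 61.1% with the second exon only and 1.51% with a retained intron; these shares are not divided by length. Pdgfa minus Inhba was -0.61 log2 units in CPM not divided by length, against 1.15 in TPM. Counting these, 48 of 50 alternatives for the growth factors' levels moved by less than 1 SD between libraries. So did 193 of 210 for the levels of other named genes and 55 of 66 for forms. Leaving out 1 of 4 libraries cannot move a mean by 1 SD, so those alternatives could not count as moved. The 2, 17 and 11 that did move used the second quantification or shares of counts. For neighbouring levels, 71 of 72 alternatives kept their sign. Depth limits Lif, with 2 to 20 expected counts per library, and Hbegf, with 10 to 54.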
